A study of Mus musculus with 39 samples.

Results

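Microglia are the resident macrophages of the brain, and chronic intermittent hypoxia (CIH) models the repeated falls in blood oxygen of obstructive sleep apnea. The data described here are the RNA-seq libraries of microglia from wildtype (WT) females that breathed room air (normoxia, NX) or CIH, 4 WT NX and 5 WT CIH libraries of 39 in the series. They were chosen by their sample titles, and genes with a level above 1 CPM (reads of a gene scaled to the library's total count) in at least 3 of the 9 libraries were kept, which left 14583 of 46333 genes. The mice were exposed from 4 to 10 months of age, for 6 months. The sample labels give cycles of 6.5% and 21% O2 every 90 s for 8 h per day, whereas the study's methods give 6% O2 and 12 h. NX mice were kept at 21% O2 with the same noise and airflow. WT mice came from crossing C57BL/6J females with 5XFAD males of a B6SJL line. The cells were a CD11b magnetic bead isolate from digested cerebral tissue, and the methods give 5 independent samples per group, while 4 WT NX libraries were analysed here. They also describe a female normoxia sample as an outlier by PCA, without saying in the sources used here which library it was. The other groups used below were 5XFAD NX and 5XFAD CIH females of the same age (5 libraries each), a line with familial Alzheimer's disease transgenes, and WT NX and WT CIH males (5 libraries each) exposed from 4 to 8 months of age, for 4 months.

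Cells sense oxygen through prolyl hydroxylases (Egln1 to Egln3), which mark the hypoxia-inducible factors Hif1a and Epas1 for breakdown when oxygen is present. When oxygen falls, these factors accumulate and raise the transcription of glucose transporters, glycolytic enzymes and growth factors such as Vegfa. Mitochondria use the oxygen, and part of their respiratory chain is encoded by the mitochondrial genome itself and the rest by nuclear genes. Microglia also carry a homeostatic program (P2ry12, Tmem119, Cx3cr1) and can take up a disease-associated program (Spp1, Gpnmb, Lpl) near damage.

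Total counts were 16398033 to 25906121 in WT NX and 15268978 to 18630700 in WT CIH, so 1 CPM rested on at least 15.3 reads. The markers of microglia were abundant in every library. Cx3cr1, the fractalkine receptor, was at 5629 to 6323 CPM in WT NX and 5890 to 6586 CPM in WT CIH, and Xist, the RNA of the inactive X chromosome, was at 1622 to 2305 CPM in the 9 libraries. WT NX 1 was the most deeply sequenced library and held 103 genes at more than 3 times the level of every other library, against 0 to 2 genes in each of the other 8. WT CIH 2, 3 and 5 had a count for 27353 to 30187 genes, and the other 6 libraries for 21750 to 25029. Values without WT NX 1, and with WT CIH 1 and 4 as the only CIH libraries, are given for the main gene lists.

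The main question was which genes of WT microglia differed after 6 months of CIH. None passed the thresholds in the main test. With edgeR's quasi-likelihood F test (TMM normalization, Benjamini-Hochberg adjusted p below 0.05 and absolute log2 fold change above 1; positive means higher in WT CIH), 0 of 14583 genes were differentially expressed genes (DEGs), a share of 0%. At an unadjusted p below 0.05 there were 565 genes (3.87%), 331 lower (2.27%) and 234 higher (1.6%) in WT CIH. The smallest adjusted p was 0.96. The count at an unadjusted p below 0.05 was 357 (2.47%) without WT NX 1, 301 without WT CIH 2, 903 without WT NX 4 and 1073 without WT NX 2, with 0 DEGs each time. DESeq2 gave 0 DEGs with 539 genes at an unadjusted p below 0.05, and edgeR's likelihood ratio test gave 0 with 456. Genes were called in 2 other settings given below: 6 by the likelihood ratio test without WT NX 1, and 21 of 36713 by the quasi-likelihood test with no filter on low counts. For 12647 genes the 95% interval of the log2FC lay within −1 and 1, so for most genes the interval held no difference above 2-fold. All WT CIH libraries lay below all WT NX libraries for 65 genes (0.446%) and above them for 86 (0.59%). The values below are therefore descriptions of genes that did not pass the adjusted threshold in the 9 libraries, unless another test is named.

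The tested mRNAs of the mitochondrial genome had negative log2FC values, and most overlapped between the groups. Of 13 protein-coding genes in the table, 12 were tested, and 12 of 12 had a negative log2FC, where 51.7% of all genes tested did. The 12 were measured in the same 9 libraries, so they are not independent replicates of the condition. Their median log2FC was −0.34, against −0.00491 for all genes, and 9 of 12 had an unadjusted p below 0.05, against 2.27% of all genes in this direction. None had an adjusted p below 0.05 in the quasi-likelihood test. The remaining gene did not pass the filter on low counts.

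ND5 encodes a proton-pumping subunit of complex I. Its levels were 1151, 1156, 1293 and 1128 CPM in WT NX 1 to 4 and 808, 818, 825, 1012 and 1009 CPM in WT CIH 1 to 5. Every WT CIH library lay below every WT NX library, and WT CIH 4 and 5 were the closest to the NX range. The log2FC was −0.40 (SE 0.0862, unadjusted p = 0.000646, adjusted p = 0.96 from edgeR), with a 95% interval of −0.59 to −0.21. ND5 was the 1 gene that DESeq2 placed below an adjusted p of 0.05 (adjusted p = 0.0339 from DESeq2), still under the fold change limit. Over leaving out each library in turn its log2FC ran from −0.45 to −0.36.

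ND6, the complex I subunit read from the other strand of the mitochondrial genome, was at 301, 283, 343 and 313 CPM in WT NX and 262, 233, 209, 270.3 and 267 CPM in WT CIH, with no overlap (log2FC −0.32, SE 0.0855). ND4, also of complex I, was at 782, 773, 971 and 863 CPM in WT NX and 693, 650.0, 678, 715 and 769 CPM in WT CIH, again without overlap (log2FC −0.27, SE 0.0778). With ND4L, which had 19 to 76 reads per library, these were the 4 of 12 members without overlap, against 0.446% of all genes. COX1, the catalytic subunit of complex IV and the most abundant member, was at 4464, 3665, 4931 and 4675 CPM in WT NX and 3319, 3047, 3235, 3673 and 3855 CPM in WT CIH (log2FC −0.37, SE 0.0958). Here the lowest NX library, WT NX 2, lay just below the 2 highest CIH libraries.

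The share of all counts that fell on the 13 genes was 0.963% to 1.21% in WT NX and 0.803% to 0.979% in WT CIH, so only WT NX 2 and WT CIH 5 crossed. The result did not rest on WT NX 1. Without it, 12 of 12 were lower, 9 had an unadjusted p below 0.05 (1.09% of all genes in this direction) and the median was −0.35, where 50.5% of all genes had a negative log2FC. Over leaving out each of the 9 libraries in turn, 12 of 12 stayed negative and the median ran from −0.39 to −0.25 (the latter without WT NX 3). In these fits 9 or 10 members had an unadjusted p below 0.05, where 1.09% to 4.92% of all genes were lower at that p. In a bulk isolate, fewer cells of a type and less RNA per cell cannot be told apart. The share was lowest in WT CIH 2 (0.803%), WT CIH 3 (0.852%) and WT CIH 1 (0.853%). Markers of astrocytes and oligodendrocytes, given further on, were lowest in WT CIH 1 and 2 and within the NX range in WT CIH 3, and their part in this result was not tested. With WT CIH 1 and 4 as the only CIH libraries, a subset chosen after the data were seen, 12 of 12 were lower and the median was −0.27. Of these, 7 had an unadjusted p below 0.05, against 1.33% of all genes in this direction.

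**Figure D1:**
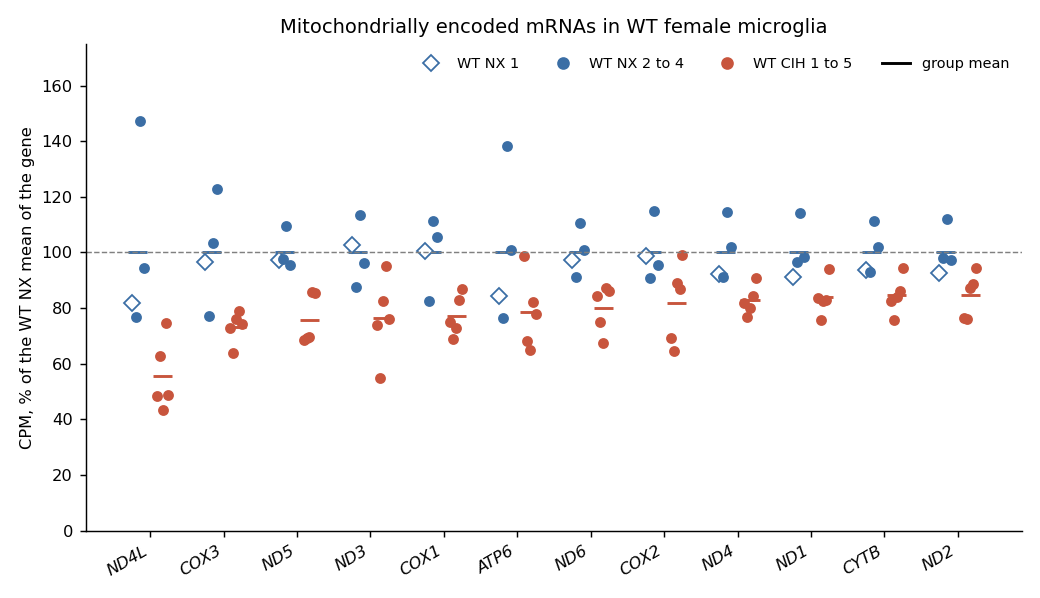
CPM of the 12 tested mitochondrially encoded genes in each WT female library, as a percentage of the gene's WT NX mean (y axis, linear from 0). Open diamonds are WT NX 1, filled blue points WT NX 2 to 4, red points the 5 WT CIH libraries and short lines the group means. The red means lie below 100% for every gene, and ND5, ND6, ND4 and ND4L show no overlap between the groups.

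The nuclear-encoded genes of the same respiratory chain had small negative values. Of 76 tested, 65 (85.5%) had a negative log2FC, where 51.7% of all genes did, the median was −0.09 and 1 had an unadjusted p below 0.05 and was lower, against 2.27% of all genes. That gene was Ndufa1, a complex I subunit, at 12.5, 10.6, 12.3 and 8.97 CPM in WT NX and 6.76, 7.90, 8.50, 8.52 and 11.2 CPM in WT CIH (log2FC −0.37, SE 0.157, 95% interval −0.71 to −0.02). All 76 had a 95% interval within −1 and 1. The median ran from −0.15 without WT NX 4 to −0.04 without WT NX 1. The number of lower members at an unadjusted p below 0.05 was 8 without WT NX 2 or without WT NX 4, where 4.92% and 3.39% of all genes were lower at that p, 3 without WT CIH 5 (2.31% of all genes), and 0 without WT NX 1, WT NX 3, WT CIH 1, WT CIH 2 or WT CIH 3.

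Mid1 and G530011O06Rik, with lower values in WT CIH, lay at the distal end of the X chromosome, at or next to the pseudoautosomal region. X and Y pair there in male meiosis. Other entries with lower values were annotated on the Y chromosome. Mid1 encodes a microtubule-associated ubiquitin ligase, is known to span the boundary of that region, and lies on the forward strand at chrX:169685199-170005736 (GRCm38). G530011O06Rik, a long noncoding RNA on the reverse strand, lies inside it at chrX:169975043-169978917. Mid1-ps1 is a pseudogene copy of Mid1 annotated on the Y chromosome (chrY:90753057-90763485), and Gm33272 is a noncoding RNA annotated at chrY:90793687-90806846. All 9 mice are female, so reads on the Y entries were placed there from near-identical X sequence or another source, and how the counting split reads between such copies is not given in the sources used here. Whether the counting used strand is not stated either, so Mid1 and G530011O06Rik reads cannot be told apart where they overlap. These genes are among those the study lists for this comparison, chosen on these samples, and the values below are not independent evidence of their direction.

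Mid1 was at 30.8, 67.1, 120.0 and 89.8 CPM in WT NX 1 to 4 and 17.8, 15.4, 10.6, 49.1 and 19.6 CPM in WT CIH 1 to 5. WT CIH 4 alone lay above the lowest NX library, which was WT NX 1. The log2FC was −1.76 (SE 0.441, adjusted p = 0.96 from edgeR, 95% interval −2.73 to −0.79). G530011O06Rik was at 41.7, 60.2, 189 and 127 CPM in WT NX and 31.1, 9.31, 8.11, 48.3 and 24.4 CPM in WT CIH (log2FC −2.09, SE 0.538).

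Mid1-ps1 was at 17.0, 27.5, 75.4 and 68.7 CPM in WT NX and 8.38, 7.27, 3.70, 24.9 and 12.2 CPM in WT CIH (log2FC −2.05, SE 0.526). Gm33272 was at 5.62, 13.2, 22.6 and 29.6 CPM in WT NX and 9.93, 5.16, 2.92, 7.22 and 4.36 CPM in WT CIH (log2FC −1.58, SE 0.441). Mid1, G530011O06Rik and Mid1-ps1 shared their order in part: WT NX 3 and 4 were highest, and WT CIH 4 was the highest CIH library for each. Erdr1_1, an entry that matched no reference gene and carries the name of Erdr1, was at 5.50, 8.34, 29.4 and 14.9 CPM in WT NX and 1.44, 0.319, 1.43, 5.43 and 0.331 CPM in WT CIH, and no library overlapped (log2FC −3.00, SE 0.719). WT CIH 2 and 5 held only 5 and 6 reads of it. Gm10076, listed as a pseudogene or long noncoding RNA at chr14:105681828-105682211, was at 13.5, 13.4, 24.7 and 38.8 CPM in WT NX and 8.50, 5.93, 12.9, 8.03 and 15.4 CPM in WT CIH (log2FC −1.15, SE 0.348).

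Few entries of the list for the distal X chromosome had such values. That list also holds the Y entries Mid1-ps1 and Gm33272 and the unmatched entry Erdr1_1. Of its 18 genes present in the table, 15 were tested and 12 had a negative log2FC, where 51.7% of all genes did. At an unadjusted p below 0.05 there were 6, all lower, against 2.27% of all genes. The 6 were Mid1, G530011O06Rik, Mid1-ps1, Gm33272, Erdr1_1 and Tlr8, an RNA receptor that was high in WT NX 1. All but Tlr8 are among the genes the study lists for this comparison, chosen on these samples. The count against all genes restates that choice. The median log2FC of the 15 was −0.14. The neighbouring protein-coding genes had log2FC values from −0.14 to 0.02: Hccs, Msl3, Prps2, Tlr7 and Tmsb4x, which, with Tlr8, were named after their values were seen except for Tmsb4x.

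Whether these genes passed the threshold depended on the test, on WT NX 1 and on the filter on low counts. With the filter, the quasi-likelihood test called none with or without this library. With no filter it called 21 of 36713 genes in the 9 libraries, and the 6 of them that were not highest in WT NX 1 were Erdr1_1, G530011O06Rik, Mid1 and Mid1-ps1 (adjusted p = 0.00588 each from edgeR), Gm33272 (adjusted p = 0.0228) and Gm10076 (adjusted p = 0.0409). The likelihood ratio test called none of the 14583 genes in the 9 libraries and 6 of 14478 without WT NX 1, with adjusted p values from edgeR of 0.00147 for Gm33272, 0.0018 for Mid1, 0.00851 for Mid1-ps1, 0.0163 for G530011O06Rik, 0.029 for Erdr1_1 and 0.029 for Xlr3a. With WT CIH 1 and 4 as the only CIH libraries, a subset chosen after the data were seen, the log2FC was −1.20 for Mid1 and −2.07 for Erdr1_1.

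**Figure D2:**
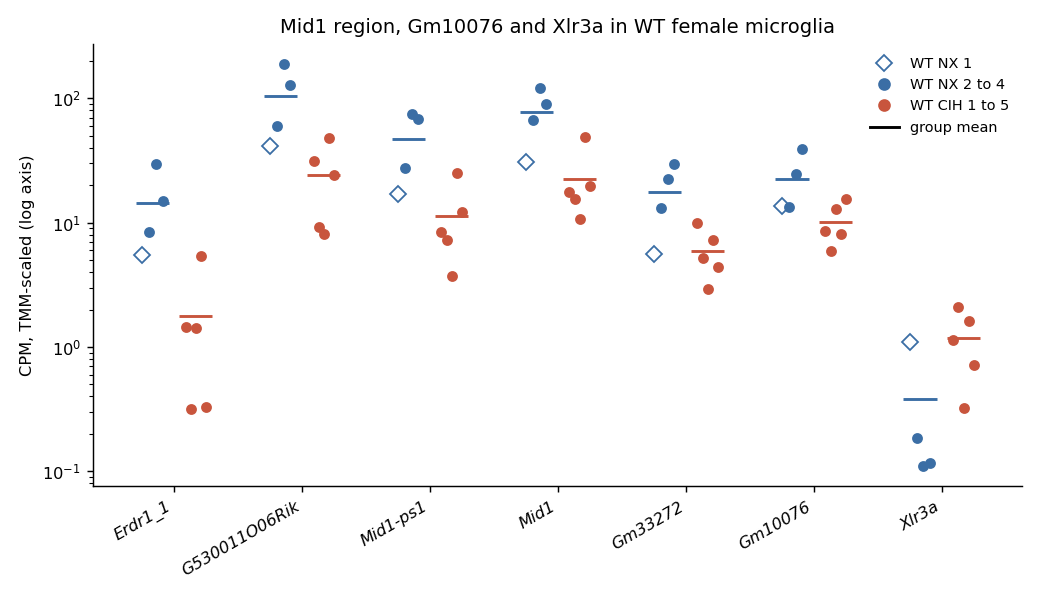
CPM per library (log axis) of Erdr1_1, G530011O06Rik, Mid1-ps1, Mid1, Gm33272, Gm10076 and Xlr3a. Open diamonds are WT NX 1, blue points WT NX 2 to 4, red points WT CIH and short lines the group means. WT NX 1 is the lowest or next to lowest NX library for the first 6 genes and the highest for Xlr3a, and only Erdr1_1 shows no overlap.

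Xlr3a belongs to a family of lymphocyte-regulated genes on the X chromosome (chrX:73086293-73097095, reverse strand) whose members are close copies of each other. It was at 1.10, 0.187, 0.110 and 0.117 CPM in WT NX and 1.14, 2.10, 0.325, 1.63 and 0.718 CPM in WT CIH. WT NX 1 lay within the CIH range, and the other 3 NX libraries rested on 2 or 3 reads each, against 5 to 33 reads in the CIH libraries. The log2FC was 1.51 (SE 0.710, 95% interval −0.05 to 3.07), and 3.05 (SE 0.687) without WT NX 1. Of 14 listed genes of this family and other germline genes, 7 passed the filter on low counts, 6 had a positive log2FC and none had an unadjusted p below 0.05, while without WT NX 1 2 were higher at that p, against 1.37% of all genes. Fmr1nb, a germline gene at chrX:68761839-68804567, was at 1.96, 0, 0.604 and 0.175 CPM in WT NX and 1.08, 3.00, 1.04, 0.760 and 1.99 CPM in WT CIH (log2FC 1.10, SE 0.774; 2.52 without WT NX 1 and 0.71 without WT NX 2). In males, which share no samples with this comparison, Xlr3a was at 0 to 0.129 CPM in 5 WT NX libraries and at 0.057 to 2.92 CPM in 5 WT CIH libraries (adjusted p = 0.002 from edgeR in males). Here 4 of 5 CIH libraries lay above all NX libraries. The difference between the cohorts for Xlr3a was 3.20 (SE 1.25, adjusted p = 0.0855 from edgeR). Other genes named above did not all keep their female sign in males. The male log2FC was −0.35 for Fmr1nb and 0.13 for Mid1, opposite in sign to females. It was −0.102 for Mid1-ps1, −0.75 for G530011O06Rik and −0.91 for Gm10076, of the same sign. None of these genes had an adjusted p below 0.05 from edgeR, in males or for the difference between the cohorts.

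The lower values of disease-associated microglia (DAM) genes in WT CIH rested largely on WT NX 1. Of 32 listed, 30 were tested, 3 had a positive log2FC, 11 had an unadjusted p below 0.05 with a negative log2FC (2.27% of all genes), and the median was −0.38. Without WT NX 1 these numbers were 7, 3 (1.09% of all genes) and −0.09. The 11 became 17 without WT NX 2, where the share of all genes was also higher (4.92%), and 0 with WT CIH 1 and 4 as the only CIH libraries (1.33% of all genes, median −0.35). Spp1, the secreted glycoprotein osteopontin, was at 2740, 8.59, 23.2 and 19.9 CPM in WT NX 1 to 4 and 9.69, 9.37, 7.33, 18.9 and 12.4 CPM in WT CIH 1 to 5. WT NX 1 lay far above the other 8 libraries, and the rest of the groups overlapped. The fitted log2FC was −5.91 (SE 1.56) with this library and −0.57 (SE 0.330) without it.

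Gpnmb, a lysosomal glycoprotein, was at 813, 1.12, 1.59 and 1.05 CPM in WT NX and 0.957, 2.10, 1.30, 0.977 and 1.38 CPM in WT CIH. Fabp5, a fatty acid carrier, was at 99.0, 1.49, 1.48 and 1.11 CPM in WT NX and 0.897, 1.40, 2.21, 1.19 and 2.15 CPM in WT CIH. Both were near 1 or 2 CPM outside WT NX 1, and their log2FC without it was 0.09 and 0.21, positive where it was negative with it. Lpl, lipoprotein lipase, was at 202, 23.3, 49.6 and 78.6 CPM in WT NX and 30.5, 27.4, 28.8, 38.3 and 29.2 CPM in WT CIH, and WT NX 3 and 4 also lay above all CIH libraries (log2FC −0.71, SE 0.281, without WT NX 1). Apoe, the main lipid carrier of glia, was at 2875, 1251, 2096 and 1533 CPM in WT NX and 1115, 1235, 1273, 1614 and 1843 CPM in WT CIH (log2FC −0.45, SE 0.223; −0.20 without WT NX 1). Trem2, the lipid receptor that the DAM program needs, had a log2FC of 0.02 (95% interval −0.16 to 0.20).

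The genes that stood out in WT NX 1 went beyond the DAM list. They included the cytokine Il1b at 148 CPM (23.7 to 28.0 in the other NX libraries, 21.9 to 38.0 in WT CIH) and its inhibitor Il1rn at 76.6 CPM (1.80 to 2.58 and 1.21 to 2.34). They also included the neutrophil genes Cxcr2, a chemokine receptor, at 18.98 CPM (0.809 to 1.69 and 1.16 to 1.85) and Mmp9, a matrix protease, at 29.1 CPM (5.35 to 8.79 and 5.50 to 7.59). The mean log2 CPM of 15 neutrophil and monocyte genes was 4.50 in WT NX 1, 2.62 to 2.75 in the other NX and 2.84 to 3.41 in the CIH libraries. The median log2FC of these genes turned from −0.38 to 0.39 without WT NX 1. P2ry12 was at 3020 CPM there, below its range in the other 8 libraries.

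**Figure D3:**
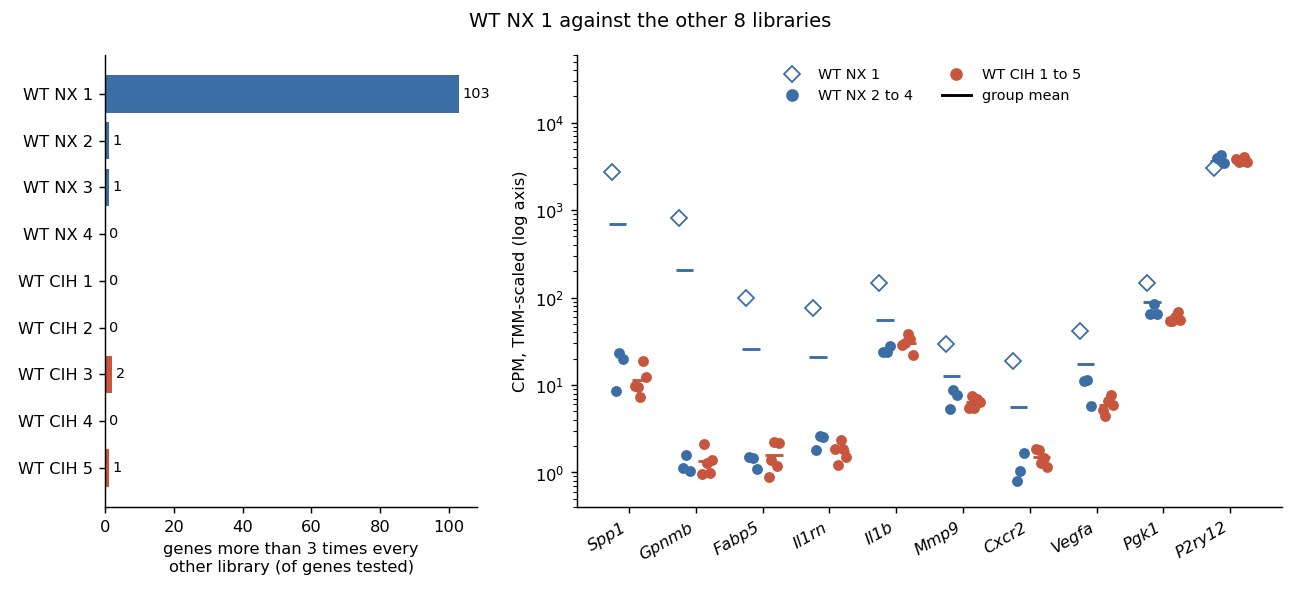
Left, the number of tested genes at more than 3 times the CPM of every other library, for each of the 9 WT female libraries: 103 in WT NX 1 and 0 to 2 elsewhere. Right, CPM per library (log axis) of 10 genes, with WT NX 1 as open diamonds, WT NX 2 to 4 in blue, WT CIH in red and group means as short lines. From Spp1 to Pgk1 the diamond lies above all other points, and for P2ry12 it lies below them.

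Of 12 oxygen sensing genes tested, 4 had a positive log2FC, 3 (Hif1a, Egln1 and Egln3) had an unadjusted p below 0.05 with a negative log2FC, against 2.27% of all genes, and the median was −0.05. Without WT NX 1 the 3 became 1, where 1.09% of all genes were lower at that p. Hif1a was at 163, 138, 159 and 161 CPM in WT NX and 152, 131, 133, 144 and 134 CPM in WT CIH, with overlap (log2FC −0.16, SE 0.0666, unadjusted p = 0.0343, adjusted p = 0.96 from edgeR). Epas1, the second factor and a gene of endothelial cells, ran from 1.74 to 40.8 CPM within WT CIH, which was wider than the difference between the groups (log2FC 0.01, 95% interval −1.78 to 1.80). The hydroxylase Egln1 had a log2FC of −0.18 (SE 0.0821; −0.09 without WT NX 1). Egln3 was at 11.6 CPM in WT NX 1, 1.65 to 3.20 CPM in the other NX and 1.62 to 2.43 CPM in the CIH libraries.

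Among 24 tested target genes of hypoxia-inducible factors, 4 had a positive log2FC, 6 had an unadjusted p below 0.05 with a negative log2FC (2.27% of all genes), and the median was −0.24. Without WT NX 1 there were 8, 1 (1.09% of all genes) and −0.07. The count of 6 moved with the libraries used, as did the share of all genes lower at that p. It was 3, 2, 1 and 3 without WT CIH 1, 2, 3 and 5 (1.61%, 1.2%, 1.93% and 2.31% of all genes), 4 without WT NX 2 (4.92%), 10 without WT NX 4 (3.39%) and 0 with WT CIH 1 and 4 as the only CIH libraries (1.33%). Vegfa, the vascular growth factor, was at 41.5, 11.1, 11.4 and 5.83 CPM in WT NX and 5.21, 4.46, 6.62, 7.65 and 5.97 CPM in WT CIH. WT NX 1 was highest, and WT NX 2 and 3 also lay above all CIH libraries (log2FC −1.55, SE 0.463; without WT NX 1 −0.65, SE 0.235). The glucose transporter Slc2a1 had a log2FC of −0.28 with and 0.02 without WT NX 1, and the mitophagy receptor Bnip3 of −0.31 and −0.14. The oxidoreductase Ero1a was at −0.35 (SE 0.136; −0.16 without WT NX 1) and Pfkfb3, which makes the activator of phosphofructokinase, at −0.12 (SE 0.0545). In edgeR's quasi-likelihood test with the filter on low counts no member was called, and none was higher in WT CIH at an unadjusted p below 0.05. With no filter the same test called Vegfa (log2FC −1.59, adjusted p = 0.0361), which was highest in WT NX 1.

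Of 20 glycolytic enzymes and lactate transporters tested, 1 had a positive log2FC, 10 had an unadjusted p below 0.05 with a negative log2FC (2.27% of all genes), and the median was −0.39. None passed adjustment. Without WT NX 1, 4 were positive, 5 had an unadjusted p below 0.05 (1.09% of all genes) and the median was −0.18. The 10 became 6 without WT CIH 2 (1.2% of all genes) and 1 with WT CIH 1 and 4 as the only CIH libraries (1.33% of all genes, median −0.33). Slc16a3, the transporter that exports lactate, was at 71.4, 53.9, 51.7 and 47.6 CPM in WT NX and 42.1, 40.7, 39.3, 49.2 and 42.1 CPM in WT CIH. Only WT CIH 4 reached into the NX range (log2FC −0.40, SE 0.112; without WT NX 1 −0.25, SE 0.0803). Pgk1, phosphoglycerate kinase, was at 146, 65.4, 83.5 and 65.1 CPM in WT NX and 53.9, 53.5, 60.3, 69.2 and 55.3 CPM in WT CIH (log2FC −0.63 and −0.28 with and without WT NX 1). Without that library the log2FC was −0.26 for Pfkl (phosphofructokinase), −0.19 for Eno1 (enolase), −0.20 for Ldha (lactate dehydrogenase) and −0.18 for Pkm (pyruvate kinase), and −0.38, −0.39, −0.48 and −0.44 with it.

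Hypoxia-inducible factors bind a short core, ACGTG, near the start of many of their targets. The 250 bases before the RefSeq start (GRCm38.p6) are shown for 4 members of the oxygen-responsive lists so that the core can be seen in its setting. Capitals mark ACGTG or its reverse complement CACGT, which overlap in CACGTG, and each sequence reads 5′ to 3′ on the gene's own strand.
Slc16a3, chr11:120948817-120949066, forward strand: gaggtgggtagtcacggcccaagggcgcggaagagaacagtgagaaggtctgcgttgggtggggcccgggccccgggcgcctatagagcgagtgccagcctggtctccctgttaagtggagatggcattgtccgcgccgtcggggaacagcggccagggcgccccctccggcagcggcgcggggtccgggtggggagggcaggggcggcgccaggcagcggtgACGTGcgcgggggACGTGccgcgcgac
Pgk1, chrX:106186850-106187099, forward strand: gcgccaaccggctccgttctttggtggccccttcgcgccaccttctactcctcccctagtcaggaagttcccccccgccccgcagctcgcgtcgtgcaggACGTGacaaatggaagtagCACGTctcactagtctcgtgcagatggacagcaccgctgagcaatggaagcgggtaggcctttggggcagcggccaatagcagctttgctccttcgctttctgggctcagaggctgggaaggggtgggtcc
Ldha, chr7:46845554-46845803, forward strand: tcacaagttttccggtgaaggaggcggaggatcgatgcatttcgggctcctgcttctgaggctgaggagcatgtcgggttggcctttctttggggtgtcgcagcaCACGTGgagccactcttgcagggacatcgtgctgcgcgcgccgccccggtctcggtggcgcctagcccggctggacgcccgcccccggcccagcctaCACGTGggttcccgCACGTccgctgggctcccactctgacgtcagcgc
Egln3, chr12:54203875-54204124, reverse strand: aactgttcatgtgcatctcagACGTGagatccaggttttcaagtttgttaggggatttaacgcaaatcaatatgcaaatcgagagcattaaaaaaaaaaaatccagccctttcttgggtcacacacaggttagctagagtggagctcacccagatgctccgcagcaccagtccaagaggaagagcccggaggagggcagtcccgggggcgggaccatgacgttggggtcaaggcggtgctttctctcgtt
The core was found on either strand in 8 of 20 glycolysis genes, 11 of 19 hypoxia targets and 5 of 10 oxygen sensing genes with a RefSeq window, in 16.6% of all 27025 genes with one, and in 21.2% of the 11034 genes tested that had one. Within the glycolysis list the median log2FC was −0.30 with and −0.39 without the core, and within the hypoxia target list −0.28 and −0.13. A match is a run of letters and does not show binding, and no binding was measured here.

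Of 22 tested cytokine and inflammasome genes, 6 had a positive log2FC, 3 had an unadjusted p below 0.05, all lower (Il1rn, Nlrp3 and Ccl3; 2.27% of all genes were lower at that p), and the median was −0.08. Without WT NX 1 there were 2 higher (1.37% of all genes) and 1 lower (1.09%) at that p and the median was 0.00109, and the 3 lower became 6 without WT NX 3 (2.78% of all genes), 2 without WT CIH 2 (1.2%) and 2 without WT CIH 5 (2.31%). Nlrp3, the sensor of the inflammasome, was at 207, 271, 150.1 and 209 CPM in WT NX and 212, 114, 108, 139.7 and 125 CPM in WT CIH. WT CIH 1 lay among the NX libraries and the other 4 CIH libraries lay below all NX libraries (log2FC −0.58, SE 0.203, adjusted p = 0.96 from edgeR; −0.59 without WT NX 1). The chemokine Ccl3 was at 71.0, 70.2, 41.5 and 53.6 CPM in WT NX and 39.7, 28.9, 57.2, 45.0 and 38.5 CPM in WT CIH (log2FC −0.50, SE 0.193). Tnf and Il1b had a log2FC of −0.26 and −0.89 in all libraries and of 0.08 and 0.28 without WT NX 1. Among 32 interferon response genes 15 were positive (median −0.06, none at an unadjusted p below 0.05). The sign depended on which libraries were used: 26 were positive without WT NX 1 (median 0.12), 29 with WT CIH 1 and 4 as the only CIH libraries (median 0.25), and the median was −0.36 without WT CIH 1. Cxcl10, an interferon-induced chemokine, was at 32.7 CPM in WT CIH 1 and 4.87 to 9.05 CPM in the other CIH libraries.

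Of 11 complement genes 0 had a positive log2FC and 2 were lower at an unadjusted p below 0.05, against 2.27% of all genes (median −0.09). In the fit without WT NX 1, 1 was positive, 1 was lower at that p (1.09% of all genes) and the median was −0.06. C4b, a component of the classical pathway, was at 87.2, 70.1, 56.1 and 77.1 CPM in WT NX and 53.6, 35.3, 61.9, 52.5 and 49.7 CPM in WT CIH, with WT CIH 3 inside the NX range (log2FC −0.52, SE 0.154). C3, the central component, was at 36.1 CPM in WT NX 1 and 4.92 to 8.65 CPM in the other 8 libraries. Of 12 border macrophage genes 2 were positive and 2 were lower at that p (median −0.28), and 2 and 1 without WT NX 1 (median −0.13). Siglec1, a lectin of border macrophages, was at 49.3, 42.4, 30.2 and 31.3 CPM in WT NX and 32.9, 15.6, 27.7, 24.0 and 23.2 CPM in WT CIH (log2FC −0.63, SE 0.199).

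The homeostatic genes had values near 0. Of 20 tested, 8 were positive, the median log2FC was −0.00242, none had an unadjusted p below 0.05 and all 20 had a 95% interval within −1 and 1. The log2FC was 0.02 (95% interval −0.19 to 0.22) for P2ry12, a purinergic receptor, −0.00 (−0.15 to 0.14) for Tmem119, 0.04 (−0.09 to 0.17) for Cx3cr1 and −0.01 (−0.14 to 0.12) for the growth factor receptor Csf1r.

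Outside the lists, the genes with the smallest unadjusted p among those without overlap were followed by a fixed rule, 8 in each direction. Ccl27a, a chemokine best known from skin, was at 6.96, 6.97, 6.70 and 7.11 CPM in WT NX and 10.7, 10.1, 10.5, 9.01 and 9.01 CPM in WT CIH (log2FC 0.51, SE 0.108, adjusted p = 0.96 from edgeR). The 4 NX libraries lay within 0.5 CPM of each other. Sfmbt2, a Polycomb protein, was at 3.81, 4.79, 5.00 and 5.48 CPM in WT NX and 8.02, 8.67, 7.14, 6.62 and 7.24 CPM in WT CIH (log2FC 0.66, SE 0.150). Mdga1, a cell adhesion protein, was at 2.51, 3.05, 3.08 and 2.16 CPM in WT NX and 4.01, 4.08, 4.41, 4.45 and 4.70 CPM in WT CIH (log2FC 0.68, SE 0.175). The others higher in WT CIH were the ADP-ribosyltransferase Art1 (log2FC 0.90), the RGS7 binding protein Rgs7bp (0.38), the palmitoyltransferase family member Zdhhc24 (0.34), the zinc finger protein Zfp322a (0.25) and the signalling adaptor Sh2b2 (0.16).

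Lower in WT CIH, Rlf, a zinc finger protein, was at 82.1, 81.5, 73.8 and 76.3 CPM in WT NX and 66.8, 65.7, 66.7, 67.5 and 65.7 CPM in WT CIH (log2FC −0.24, SE 0.0509). The 5 CIH libraries lay within 2 CPM of each other. Mgl2, a lectin of macrophages and dendritic cells, was at 36.3, 24.9, 22.3 and 22.0 CPM in WT NX and 15.1, 14.7, 18.6, 18.3 and 18.3 CPM in WT CIH (log2FC −0.64, SE 0.151, and −0.44 without WT NX 1). The splicing factor Eftud2 (log2FC −0.22) and the cation channel Trpv4 (log2FC −0.26) were also among them, as were ND5, ND6 and Erdr1_1. With 86 and 65 genes without overlap to choose from, these genes were picked for their separation, and none passed adjustment over 14583 genes.

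The medians of most other gene lists lay within 0.3 of 0 on the log2 scale. The median log2FC was −0.15 for 22 antioxidant genes, −0.08 for 6 NADPH oxidase genes, 0.05 for 19 clock genes, −0.03 for 20 unfolded protein and heat shock genes and 0.08 for 21 immediate early genes. It was −0.26 for 18 cell cycle genes, −0.19 for 8 MHC class II genes, −0.13 for 11 iron handling genes and −0.14 for 19 cholesterol and lipid synthesis genes. These 9 medians lay between −0.12 and 0.08 without WT NX 1. Leaving out each library in turn moved the immediate early median from −0.27 to 0.38, the unfolded protein median from −0.10 to 0.04 and the cell cycle median from −0.37 to −0.02. At an unadjusted p below 0.05, 2 antioxidant genes (Slc7a11 at −1.18 and Prdx1 at −0.56), 1 NADPH oxidase gene (Cybb at −0.82) and 3 lipid synthesis genes (Srebf1, Srebf2 and Hmgcs1, −0.16 to −0.13) were lower, against 2.27% of all genes. Each of these 3 counts was 0 without WT NX 1, where Slc7a11 was at −0.22, Prdx1 at −0.16 and Cybb at −0.27. The chaperone Dnajb1 (log2FC 0.48, 139.9 CPM in WT CIH 3 and 57.6 to 79.4 in the other CIH libraries) and the early response factor Egr3 (log2FC 0.58) were the members of these 9 lists with an unadjusted p below 0.05 and a positive log2FC, and both were highest in WT CIH 3.

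Markers of other cells were present at low levels and differed between libraries. The mean log2 CPM of 12 astrocyte genes was 2.12 to 3.16 in WT NX and 0.83, 1.27, 2.68, 2.00 and 2.80 in WT CIH 1 to 5, and that of 11 oligodendrocyte genes was 2.86 to 4.02 in WT NX and 1.58, 1.58, 3.61, 2.60 and 3.11 in WT CIH. WT CIH 1 and 2 were lowest for both lists and the other 3 CIH libraries lay within or near the NX range. The median log2FC was −0.69 and −0.80, with 0 members at an unadjusted p below 0.05. Over leaving out each library the medians ran from −0.96 to −0.14 and from −1.19 to −0.39. With WT CIH 1 and 4 as the only CIH libraries they were −1.28 and −1.45. In that fit 4 and 6 members were lower at an unadjusted p below 0.05, against 1.33% of all genes. In all 9 libraries the median was 0.36 for 9 neuron, −0.05 for 13 endothelial and mural, 0.01 for 4 lymphocyte, −0.16 for 6 erythroid and −0.26 for 9 choroid plexus and ependyma genes, with none at an unadjusted p below 0.05. Over leaving out each library these medians ran from 0.01 to 0.49 (neuron), −0.31 to 0.32 (endothelial and mural), −0.10 to 0.07 (lymphocyte), −0.61 to 0.29 (erythroid) and −0.53 to 0.21 (choroid plexus and ependyma), so all but the neuron median changed sign.

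**Figure D4:**
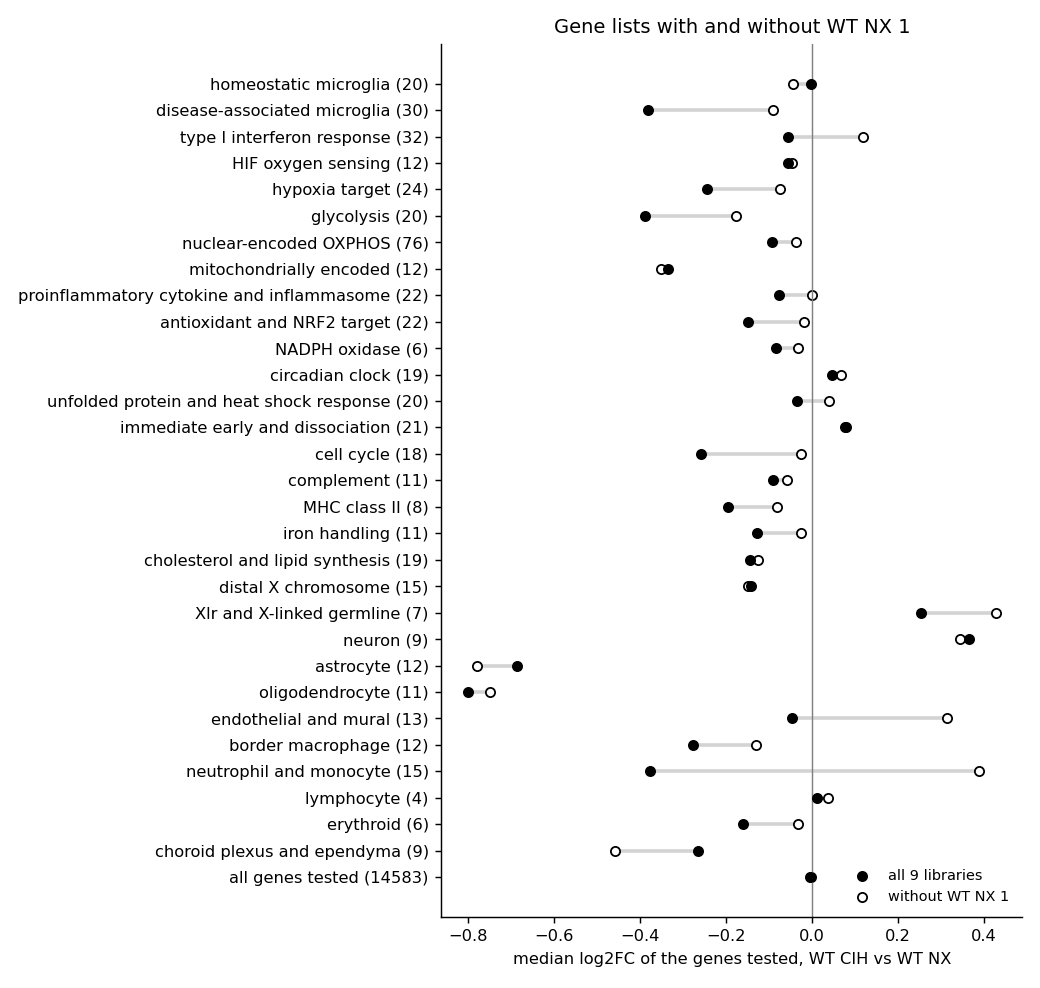
Median log2FC (WT CIH vs WT NX, x axis) of the tested genes of 30 lists and of all genes, with the number tested in brackets. Filled points use all 9 libraries and open points leave out WT NX 1. The mitochondrially encoded list stays at −0.34 and −0.35, while the glycolysis (−0.39 and −0.18) and DAM (−0.38 and −0.09) lists move toward 0 and the neutrophil and monocyte list changes sign.

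The entry LOC118568479, known only by its number, separated the CIH libraries among themselves. It was at 11.4, 1.62, 5.49 and 2.33 CPM in WT NX and 2.15, 81.5, 89.6, 3.74 and 48.3 CPM in WT CIH. The 3 CIH libraries above 40 CPM, WT CIH 2, 3 and 5, were those with the most genes detected, and they also had 0.313% to 0.428% of their counts on genes under the filter, against 0.193% to 0.297% in the other 6. The log2FC was 3.04 (SE 0.998) over all libraries and −0.83 with WT CIH 1 and 4 alone, a choice made after the data were seen. Among the 5XFAD females the entry was at 302 CPM in 5XFAD NX 4 and at 84.9 and 101.6 CPM in 5XFAD CIH 1 and 4, and at 1.29 to 3.55 CPM in the other 7. Those 3 libraries, 1 of them from normoxia, were the 5XFAD females with the most genes detected (38551, 30614 and 32221, against 21697 to 23015).

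Whether the CIH effect differs between WT and 5XFAD females was tested as the genotype by treatment interaction, which includes these 9 libraries. The difference (5XFAD effect minus WT effect) passed the thresholds for 0 of 15582 genes (0%) in edgeR's quasi-likelihood test and for 0 in DESeq2, and 589 (3.78%) had an unadjusted p below 0.05. The mitochondrially encoded genes had a positive difference in 12 of 12, with a median of 0.44 and 5 at an unadjusted p below 0.05, against 1.7% of all genes in this direction. Their median CIH effect was −0.34 in WT and 0.15 in 5XFAD. The median difference was 0.37 without 5XFAD NX 4, which stands apart from its group, and 0.47 without WT NX 1, and 12 of 12 were positive in both. None was past the adjusted threshold. In the same test, where 48.2% of all genes had a positive difference, 75 of 76 nuclear-encoded respiratory chain genes (median 0.25), 10 of 12 astrocyte genes (1.05), 12 of 13 oligodendrocyte genes (1.08) and 9 of 9 choroid plexus and ependyma genes (0.89) did so, and the part of other cells in the result was not tested. For the DAM list the median difference of 0.55 became 0.27 without 5XFAD NX 4 and 0.28 without WT NX 1. For Mid1 the CIH effect was −1.76 in WT and −0.50 in 5XFAD, a difference of 1.25 (SE 0.798, unadjusted p = 0.133, adjusted p = 0.952 from edgeR).

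Whether the CIH effect in WT differs between the cohorts was tested on the female and male count tables together. Sex, age, months of exposure and count table all differ between them and cannot be told apart. Of 14341 genes, 181 (1.26%) differed at an adjusted p below 0.05 and an absolute difference above 1, 126 with the male effect above the female effect and 55 below. In all, 2219 (15.5%) had an adjusted p below 0.05 (8.62% with a higher male effect) and 4339 (30.3%) an unadjusted p below 0.05. Among the 181, the median absolute log2FC was 0.13 in females (170 genes with a female value) and 1.12 in males, and 100 were DEGs in males. Leaving out WT NX 2 gave 112 genes. 

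Vegfa was called in this test. In females it had a log2FC of −1.55, and in males it was at 3.74 to 6.86 CPM in WT NX and 5.69 to 12.2 CPM in WT CIH (log2FC 0.76, SE 0.254, adjusted p = 0.034 from edgeR). The difference, male minus female, was 2.30 (SE 0.537, adjusted p = 0.00799 from edgeR), and it was 1.41 (adjusted p = 0.0159 from edgeR) without WT NX 1. Mdga1, higher in female WT CIH, was at 5.67 to 8.57 CPM in male WT NX and 4.01 to 6.90 CPM in male WT CIH, a difference of −1.21 (SE 0.280, adjusted p = 0.00772 from edgeR). For Spp1 and Lpl the differences of 5.73 and 1.45 passed the thresholds in all libraries and not without WT NX 1, where they were 0.40 and 0.64 (adjusted p = 0.601 and 0.161 from edgeR). The call for Lpl was also lost without WT NX 4 and without any 1 of the 5 WT CIH libraries (adjusted p = 0.0516 to 0.0734 from edgeR).

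Nuclear-encoded respiratory chain genes mostly had a lower CIH effect in males than in females, with a positive difference in 4 of 75. Of 75 tested, 27 had an adjusted p below 0.05, all with a lower effect in males, against 6.85% of all genes in this direction. Their median log2FC was −0.09 in females and −0.50 in males. The count was 13 without WT NX 2 (4.26% of all genes) or without WT NX 4 (5.01%) and 15 without WT CIH 5 (4.68%). These genes are short, with a median length of 1701 bases against 4129 for all genes tested. Gene length moved with the male effect over all genes: its median log2FC was −0.36 in the shortest and 0.24 in the longest of 4 equal classes of length, against −0.01 and −0.02 in females. The 126 genes with a higher male effect had a median length of 5381 bases and the 55 with a lower one 1009 bases. Markers of other cells differed too, with a median difference of 1.80 for 12 astrocyte genes, 1.18 for 15 oligodendrocyte genes and −1.04 for 16 neutrophil and monocyte genes. Of the astrocyte genes 12 had a positive difference, as did 7199 of all 14341 genes. At an unadjusted p below 0.05, 7 were positive, against 2325 of all 14341 genes, and 1 had an adjusted p below 0.05 from edgeR. The part of length and of other cells in the difference was not tested.

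The mitochondrially encoded genes were spelled differently in the tables and were joined by both spellings after the data were seen. In males, 12 of 12 were lower in WT CIH, where 51.6% of all genes were, with a median log2FC of −0.62, and 9 were lower at an adjusted p below 0.05 in edgeR, against 15.2% of all genes in this direction. Their share of counts was 1.23% to 1.67% in male WT NX and 0.947% to 1.16% in male WT CIH, without overlap. The male and female libraries share no samples and each had a negative log2FC in 12 of 12 genes. In males the log2FC also moved with gene length over all genes, with a median of −0.36 in the shortest class and 0.24 in the longest. The 51.6% and 15.2% are shares of all genes, not of genes of like length. The part of length in the male values was not tested. The size of the effect varied by gene. ND5, the clearest in females at −0.40, was at −0.02 in males, where ND4 was at −0.92 (−0.27 in females). For 3 of 12 the difference between the cohorts had an adjusted p below 0.05, against 15.5% of all genes, and for none was it above 1.

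**Figure D5:**
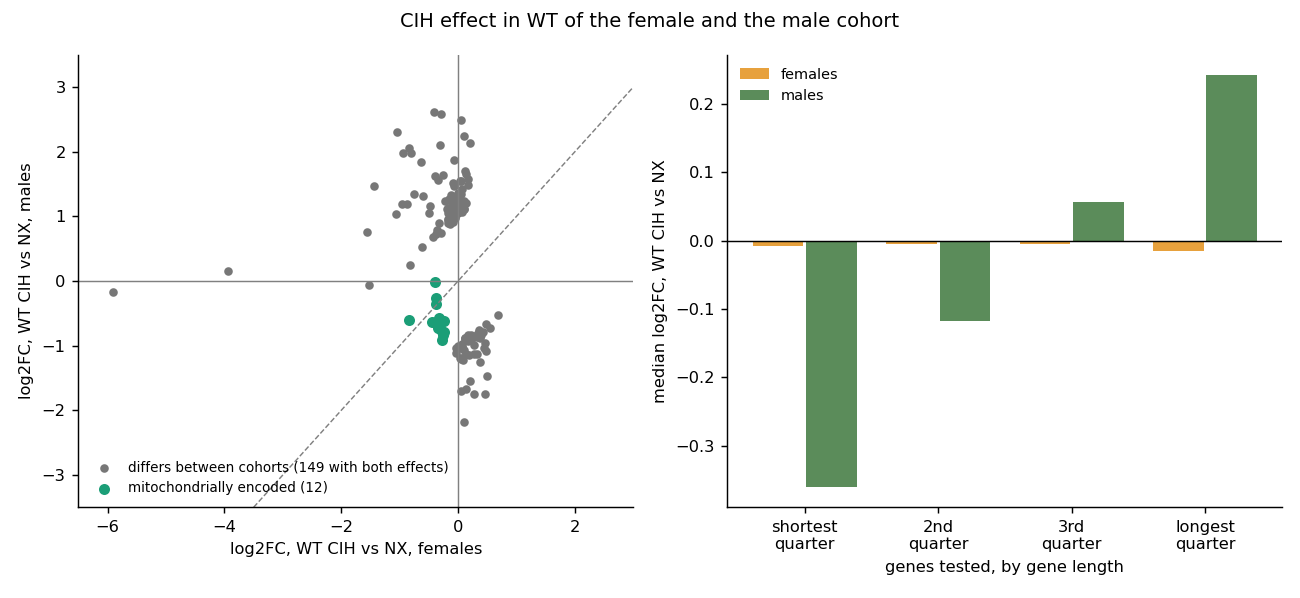
Left, log2FC of WT CIH vs NX in females (x axis) and males (y axis) for the 149 called genes with a fitted effect in both cohorts (grey) and the 12 mitochondrially encoded genes (green), with the dashed line at equal effects. Right, median log2FC in each cohort for all tested genes by class of gene length (4 classes of about equal size). Grey points spread along the male axis near 0 in females, the green points lie below 0 on both axes, and only the male bars follow gene length, from −0.36 to 0.24.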

How the data were processed

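Microglial mRNA was sequenced by the authors as paired-end libraries (NovaSeq, PE150). The submitters' processing notes name HISAT2 and the builds GRCm38 and mm10, and the counting tool, its annotation and its strand setting are not given in the sources used here. The deposited values were raw gene counts per library, with replicates not pooled, and the authors' FPKM table of the same libraries served only to check gene lengths. Members and gene lists were chosen with earlier results of these data known. Counts of the 4 WT NX and 5 WT CIH female libraries were fitted with edgeR 4.0.16 (R 4.3.3; TMM, quasi-likelihood F test, Benjamini-Hochberg adjustment) after keeping genes with CPM above 1 in at least 3 libraries. The DEG thresholds were an adjusted p below 0.05 and an absolute log2FC above 1. Interactions used all 19 female libraries or the female and male WT libraries over symbols shared by both tables. Alternatives were DESeq2 1.42.0, the likelihood ratio test, library size alone, other filters, a replicate block and leaving out each library. Named genes were those the study lists for this comparison, the 8 per direction with the smallest p and no overlap, at most 4 per list with an unadjusted p below 0.05 plus its most abundant member, and a fixed set (Hif1a, Vegfa, P2ry12 and the like). Total counts of 15268978 to 25906121 limit genes near 1 CPM to about 15.3 reads. The p-values measure the spread between these libraries. The fits were tested on simulated counts. 1 gene that the rule for named genes picked is not reported here.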

Additional observations from a re-analysis of the deposited data

Results flagged for a closer look

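In 192 groups of 4 or 5 values examined for 1 library far from the rest of its group, 25 stood apart, where chance gives about 1 in 20, and 14 of the 25 were WT NX 1. In that library Spp1 was at 2740 CPM, Gpnmb at 813, Fabp5 at 99.0, Il1b at 148, Il1rn at 76.6, Vegfa at 41.5, C3 at 36.1, Tnf at 33.7, Mmp9 at 29.1, Cxcr2 at 18.98, Egln3 at 11.6 and Xlr3a at 1.10 CPM. Its mean log2 CPM was 6.18 for the cytokine and inflammasome list and 4.50 for the neutrophil and monocyte list.

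WT CIH 4 stood above its group for Erdr1_1 at 5.43 CPM, Mid1 at 49.1 CPM, Slc16a3 at 49.2 CPM and Lpl at 38.3 CPM. WT CIH 1 stood above its group for Cxcl10 at 32.7 CPM and for the type I interferon response list at a mean log2 CPM of 4.58. WT CIH 3 did so for Dnajb1 at 139.9 CPM and for the immediate early and dissociation list at a mean log2 CPM of 8.09. Among the NX libraries, ND5 was highest in WT NX 3 at 1293 CPM, Hif1a was lowest in WT NX 2 at 138 CPM and Tmem119 was lowest in WT NX 4 at 2679 CPM.

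The CIH effect in WT differed between the male and female cohorts for 181 genes. Among the genes named in the report, the male minus female difference was 2.30 for Vegfa, 5.73 for Spp1, 1.45 for Lpl and −1.21 for Mdga1 on the log2 scale (edgeR's quasi-likelihood test of the interaction). Without WT NX 1 these were 1.41, 0.40, 0.64 and −1.17, and Spp1 and Lpl were no longer called. Sex, age, months of exposure and count table cannot be told apart in this comparison.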

How the results depend on the processing

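The count of DEGs between WT CIH and WT NX was 0 in every setting run except the likelihood ratio test without WT NX 1, with 6 (Xlr3a higher, and Gm33272, Mid1, Mid1-ps1, G530011O06Rik and Erdr1_1 lower), and no filter on low counts, with 21 of 36713 genes, all lower, of which 15 had WT NX 1 above every other library and the other 6 were Erdr1_1, G530011O06Rik, Mid1, Mid1-ps1, Gm33272 and Gm10076. The cohort interaction gave 275 genes with the likelihood ratio test and 112 to 187 on leaving out 1 library. The glycolysis median was −0.18 without WT NX 1 in both edgeR tests and ran from −0.48 to −0.18 over leaving out each library, and the neutrophil and monocyte median was 0.39 and ran from −0.63 to 0.39.

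Among named genes, the log2FC changed sign without WT NX 1 for Slc2a1 (0.0147 in the likelihood ratio test, leave-one-out −0.40 to 0.0151), Gpnmb (0.0913, −7.69 to 0.0937), Fabp5 (0.21, −4.46 to 0.21), Il1b (0.283, −1.15 to 0.283), Tnf (0.0847, −0.37 to 0.0846), Cxcr2 (0.352, −2.28 to 0.353), P2ry12 (−0.0647, −0.0647 to 0.0912) and Tmem119 (0.00886, −0.0429 to 0.0215). It also did so for Epas1 (−0.29 with WT CIH 1 and 4 only, −0.0246 with no filter, −0.59 with the replicate block, leave-one-out −0.32 to 0.86), LOC118568479 (−0.83 with WT CIH 1 and 4 only), Cxcl10 (leave-one-out −0.72 to 0.48), Trem2 (−0.000857 with no filter, −0.00283 with the block, leave-one-out −0.0353 to 0.0910), P2ry12 (−0.00184 with no filter), Tmem119 (0.0195 with WT CIH 1 and 4 only, 0.0219 with library size alone, 0.000649 with all 4 female groups) and Csf1r (0.0124 with library size alone, leave-one-out −0.0292 to 0.0188). The cause was not tested.

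The replicate numbers did not pair the libraries (correlations of −0.27, 0.26, 0.21 and −0.14 for numbers 1 to 4). With the number as a block there were 0 DEGs and 416 genes at an unadjusted p below 0.05, 130 genes in the cohort interaction, where Mdga1, Lpl and Spp1 were no longer called (adjusted p = 0.0590, 0.151 and 0.453 from edgeR), and 4 nuclear-encoded respiratory chain genes in place of 27 (1.31% against 6.85% of all genes). Genes at 1 CPM rest on 15.3 reads in the smallest of the 9 libraries and on a median of 17.1, which limits what could be detected. The choice of WT CIH 1 and 4 was made after seeing the data.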
